A study of Mus musculus with 4 samples.

Results

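The TNF receptor superfamily is described here across γδ T cells of mouse fat that did or did not express a PLZF reporter. The 10 members were given as a list of symbols: Cd27, Fas, Tnfrsf1a, Tnfrsf1b, Tnfrsf4, Tnfrsf9, Tnfrsf14, Tnfrsf18, Tnfrsf25 and Tnfrsf26. Each was found in 1 row of the deposited tables, 10 of 46166 genes in all. γδ T cells carry an antigen receptor built of γ and δ chains, and the transcription factor PLZF is the product of Zbtb16. Both groups came from epididymal adipose tissue of male C57Bl/6 PLZF-GFP mice aged 16 to 22 weeks, which carry a green fluorescent reporter of PLZF and were fed ad libitum with no other treatment. PLZF+ cells (libraries A7 and B7) and PLZF- cells (A6 and B6) were sorted by flow cytometry, 2 libraries per subset, each pooled from 10 mice. The library names are codes from the table columns. The p-values below therefore rest on the spread between pools, not between single mice. With 2 libraries per subset, the limma fit draws each gene's variance partly from the other genes. Whether pools of different subsets shared mice is not labelled. The libraries were made by SMART-seq2, which amplifies whole transcripts from small samples.

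Receptors of this superfamily bind trimeric ligands of the TNF family through cysteine-rich repeats outside the cell. Those with a death domain inside the cell (FAS, TNFRSF1A and TNFRSF25) can recruit the adaptors FADD or TRADD. Many receptors of the family, with or without a death domain, feed NF-κB through TRAF adaptors. In T cells CD27, OX40 (Tnfrsf4), CD137 (Tnfrsf9) and GITR (Tnfrsf18) are co-stimulatory receptors, and in mice CD27 separates γδ T cells prone to make interferon-γ from those prone to make IL-17.

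The estimated depth without the rRNA precursor Rn45s was 744569 (A6) and 981885 (B6) reads for PLZF- and 1837511 (A7) and 2035066 (B7) for PLZF+ cells, so low receptors are measured more coarsely in PLZF- cells. Rn45s was listed at 0 in B7 and took 26.8% to 33.2% of the total in the others. Zbtb16 was higher in each PLZF+ pool (2899 and 2921 normalized counts) than in PLZF- pools (310.4 and 699), which checks the sort. Normalized counts are the authors' estimated read counts per locus divided by 1 factor per library. They serve to compare libraries, and FPKM, which also divides by transcript length, serves to compare genes.

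The libraries differed in more than PLZF, and these values stand beside every receptor result below. The summed CD3 chain genes (Cd3e, Cd3d, Cd3g and Cd247), which every T cell needs for its antigen receptor, had 761 and 1197 normalized counts among PLZF- pools and 2371 and 2592 among PLZF+ pools. All 4 were higher in PLZF+ cells (log2 fold changes 1.08 to 1.55), and the 5 listed γδ receptor genes were matched to no row. Of 8 listed markers of natural killer cells and type 1 innate lymphoid cells, 7 were tested and 7 were lower in PLZF+ cells. Their summed level was 2087 to 2121 in PLZF- pools and 59.2 to 80.5 among PLZF+ pools, and Klre1, Gzma and Eomes were at 0 in each PLZF+ pool. Ncr1, Klrd1, Klre1, Gzma and Prf1 reached the filter, a mean of 10 normalized counts, only through PLZF- pools (PLZF+ means 0 to 3.81). Such genes could only be called lower. The same holds for Klrg1, Siglech, Ccr9, Tcf4, Itgax and Jchain of the lists below. Beside all marker counts here, 4.99% of all tested genes were lower and 2.47% higher. Of 7 tested markers of type 2 innate lymphoid cells (8 listed) 6 were lower, with sums of 4999 to 6271 against 2386 to 2503. Without Rora, which did not pass, the sums were 3188 and 2809 against 229.8 and 146. Of 10 dendritic cell markers 6 were lower (927 to 1967 against 71.9 to 182), and the plasmacytoid marker Siglech was at 0 among PLZF+ pools. Klrd1, Ncr1, Il5 and Siglech carried 238, 693, 707 and 145 normalized counts in PLZF- library A6. Of 5 listed mast cell and granulocyte markers 3 were tested and 1, Kit, was lower (278 and 248 against 18.0 and 12.3). The list summed to 396 to 736 in PLZF- and 30.1 to 175 in PLZF+ cells. The macrophage list summed to 77.6 to 97.6 in PLZF- pools and 13.6 to 32.4 among PLZF+ pools, and its tested member Ctss did not pass. Of the B and plasma cell list, Ms4a1, Cd79a and Pax5 were at 0 in all libraries, Jchain was lower and Sdc1 higher, while Cd79b, at 1.69 and 7.32 against 33.4 and 29.6, did not pass (adjusted p = 0.132, limma; sums of 277 to 597 in PLZF- pools and 138 to 169 among PLZF+ pools). Of 10 listed αβ and regulatory T cell markers, the αβ receptor genes Trac, Trbc1 and Trbc2 were matched to no row. Cd4, Cd8a and Cd8b1 were at 0 in PLZF+ and at 1.22 to 14.6 in PLZF- pools, and Foxp3 stayed at or under 2.44 in all. Of 3 tested, 0 passed by limma (list sums of 121 to 157 and 87.1 to 167). Ctla4 was higher in PLZF+ pools without overlap (48.9 and 61.0 against 113 and 70.9), and Cd5 overlapped. Cd6 had 11.8 and 62.2 in PLZF- and 0 in each PLZF+ pool, with a q-value of 0.00191 in the authors' deposited table. Of fat cell and stromal markers, Adipoq, Plin1, Pdgfra, Col1a1 and Dcn were at 0 in all libraries, and the list's sum (99.5 to 116 against 153 to 162) came almost wholly from Pecam1, which did not pass. Innate lymphocytes and dendritic cells also express receptors of this family. The part of these cell types in the receptor differences was not tested, and in bulk libraries fewer cells of a type and less RNA per cell cannot be told apart.

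**Figure D1:**
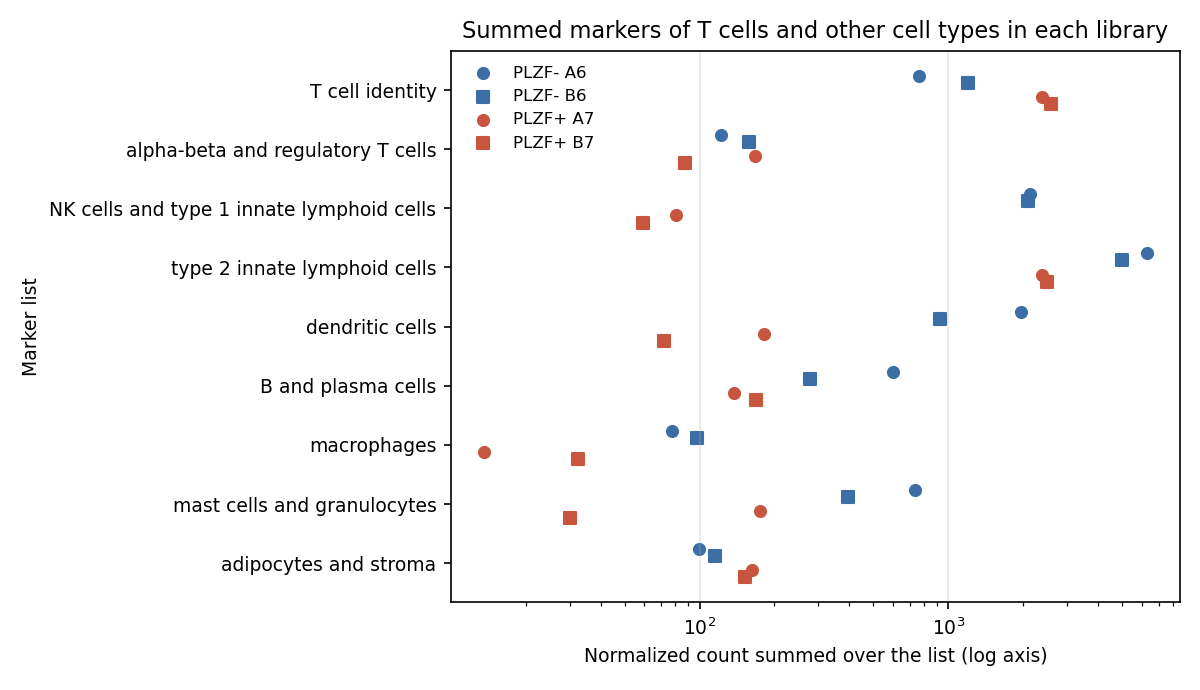
Summed normalized count of each marker list (log axis) in the 4 libraries, PLZF- in blue and PLZF+ in red. The T cell list holds the CD3 chains and is highest among PLZF+ pools, while the natural killer and dendritic cell lists are higher in both PLZF- libraries.

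Of the 10 receptors, 3 were lower in PLZF+ cells (Cd27, Tnfrsf18 and Tnfrsf9), 1 was higher (Tnfrsf25) and 6 did not pass at an adjusted p of 0.05 by limma. Among all 9282 tested genes 7.46% passed, 4.99% as lower and 2.47% as higher. The members' median log2 fold change was -0.72, beside -0.03 over all tested genes. All 10 reached the filter of a mean of 10 normalized counts, Cd27 and Fas only through their PLZF- libraries (PLZF+ means 7.65 and 3.38). Cd27 and Fas could therefore only be called lower, and both enter the median above. The subsets did not overlap for 7 receptors (5 lower and 2 higher), against 51.3% of all tested genes (27.2% lower and 24.1% higher). In the authors' deposited table, 2 of the 10, Tnfrsf18 and Tnfrsf9, had a q-value under 0.05, as did 5.73% of its loci with a completed test.

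The 5′ flanks of the 4 receptors that passed are shown so that their start regions can be compared. They are from RefSeq on GRCm38.p6 (the assembly of mm10), 5′ to 3′ on the gene's strand, and end just before the annotated start or before the first exon base of the gene in GENCODE M21. Of the 10 members, 9 matched the RefSeq table. Tnfrsf9 and Tnfrsf25 have a second listed start that is not shown. The deposited tables do not say which start was used.
Cd27 (chr6:125237028-125237277, minus strand): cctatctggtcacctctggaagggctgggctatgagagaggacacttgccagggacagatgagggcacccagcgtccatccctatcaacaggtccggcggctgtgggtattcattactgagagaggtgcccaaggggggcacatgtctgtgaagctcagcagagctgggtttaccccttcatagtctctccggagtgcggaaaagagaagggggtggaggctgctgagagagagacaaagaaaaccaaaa
Tnfrsf18 (chr4:156026072-156026163, plus strand): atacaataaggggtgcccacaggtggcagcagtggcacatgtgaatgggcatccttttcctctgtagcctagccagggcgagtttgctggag
Tnfrsf9 (chr4:150919905-150920154, plus strand): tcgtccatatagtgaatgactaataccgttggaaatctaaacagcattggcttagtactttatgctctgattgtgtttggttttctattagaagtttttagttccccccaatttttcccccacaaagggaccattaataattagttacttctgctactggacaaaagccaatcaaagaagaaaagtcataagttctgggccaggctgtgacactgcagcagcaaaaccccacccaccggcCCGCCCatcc
Tnfrsf25 (chr4:152115684-152115933, plus strand): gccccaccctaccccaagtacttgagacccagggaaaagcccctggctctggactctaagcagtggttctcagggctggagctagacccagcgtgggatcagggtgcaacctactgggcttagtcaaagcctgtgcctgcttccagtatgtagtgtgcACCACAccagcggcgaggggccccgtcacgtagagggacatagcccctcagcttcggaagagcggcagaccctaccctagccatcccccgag
Capitals mark matches on either strand to any of the motifs searched: the AP-1 site TGANTCA, the T-box core GGTGTGA, the RUNX core TGTGGT, the GC box GGGCGG and the NF-κB consensus by name. Over 32851 RefSeq upstream windows of 250 bases these were present in 6.75%, 3.33%, 14.0%, 32.7% and 7.25%. The Tnfrsf25 flank held 1 RUNX core and the Tnfrsf9 flank 1 GC box. The flanks of Cd27 and Tnfrsf18 held none of these letters, and the Tnfrsf18 flank is only 92 bases long. No marked match overlaps another.

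Cd27 showed the largest difference of the 10. The CD27 gene lies on chromosome 6 (125232622 to 125237010, minus strand, mm10), and its row also carries the microRNA gene Mir8113, which lies inside it. The row had 317 and 249 normalized counts among PLZF- pools A6 and B6, and 8.05 and 7.25 among PLZF+ pools A7 and B7. The subsets were far apart, with 13 estimated reads in each PLZF+ library against 188 and 204. The log2 fold change was -5.03 ± 0.47 (SE, n = 2 per subset, adjusted p = 4.76e-05, limma), a 32.6-fold lower level in PLZF+ cells. Cd27 kept its call under all 13 alternative settings of the fit, with log2 fold changes from -5.20 to -4.39. In the authors' deposited table, made with Cuffdiff, the q-value was 0.0805. Genes around Cd27 were lower too. Vamp1, whose annotated span covers Cd27 on the other strand, had 238 and 160 against 50.2 and 35.7 normalized counts in a row shared with E130112N10Rik (log2 fold change -2.18, adjusted p = 0.00444, limma). Tapbpl, the next gene on the same strand, had 339 and 217 against 88.6 and 29.0 (-2.39, adjusted p = 0.00859). No source used here names the strand setting, and without strand the reads of Cd27 and Vamp1 cannot be told apart where exons overlap. The same limit holds for the genes that overlap Tnfrsf18 and Tnfrsf9 on the other strand, given below. Cd70, the ligand of CD27, had 0 reads in all 4 libraries.

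Tnfrsf18, which encodes GITR, was the most abundant of the 10 per length in PLZF- cells. It had 555 and 557 normalized counts in A6 and B6 and 84.8 and 75.3 in A7 and B7. The subsets did not overlap. The SD was 1.51 in PLZF- and 6.73 in PLZF+ pools (n = 2 each). Estimated reads were 329 and 457 in A6 and B6 and 137 and 135 in A7 and B7. An SD from 2 libraries is poorly known, so these values do not show precision. The difference on the log2 scale was -2.78 ± 0.26 (SE, adjusted p = 4.82e-05, limma), 6.88-fold lower in PLZF+ cells, and the call held under all 13 alternatives (-2.87 to -2.67). In the authors' deposited table the q-value was 0.00191. An antisense gene, Gm16008, overlaps Tnfrsf18 (chromosome 4, 156026164 to 156028895), and its row held 16.9 and 13.6 normalized counts among PLZF- pools and 3.12 and 3.94 among PLZF+ pools. Tnfsf18, the ligand of GITR, stayed at or under 3.35 normalized counts in all libraries.

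The neighbour of Tnfrsf18, Tnfrsf4 (OX40), did not pass. Tnfrsf4 ends 9551 bases before Tnfrsf18 begins and starts 232 bases after Sdf4, a calcium-binding protein gene of the Golgi, and the deposited tables give Sdf4 and Tnfrsf4 as 1 row. That row had 358 and 346 normalized counts among PLZF- pools and 293 and 323 among PLZF+ pools, and its value cannot be assigned to either gene. The PLZF+ libraries were slightly lower with no overlap, but the difference of -0.19 on the log2 scale did not pass (95% interval -0.69 to 0.30, adjusted p = 0.685, limma). In FPKM the same row was 89.4 and 91.5 in PLZF- pools and 56.5 and 54.8 among PLZF+ pools (log2 fold change -0.70, adjusted p = 0.236). The count per FPKM, which grows with the length of the transcripts that were credited, was 3.9999 and 3.79 in PLZF- pools and 5.18 and 5.90 among PLZF+ pools. Its highest value over its lowest was 1.56, and 22.7% of 8834 tested genes had a range above 1.5. Whether the make-up of the row by transcript length differed between the subsets, and for which of the genes, was not tested. Tnfsf4, the OX40 ligand gene, had 16.9 and 26.8 normalized counts among PLZF- pools and 0 in each PLZF+ pool. It was at least 12.4-fold lower against a floor of 3 reads per library, and did not pass (adjusted p = 0.164, limma), while its q-value in the authors' deposited table was 0.00191.

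Tnfrsf9, which encodes the activation-induced receptor CD137, had 99.5 and 93.9 normalized counts among PLZF- pools and 21.7 and 23.996 among PLZF+ pools. The gap between the subsets was larger than the SD within either (3.98 and 1.64, n = 2 each), though an SD from 2 libraries is poorly known. Estimated reads were 59 and 77 in A6 and B6 and 35 and 43 in A7 and B7. The difference on the log2 scale was -2.04 ± 0.47 (SE, adjusted p = 0.0197, limma), 4.10-fold lower in PLZF+ cells, and in the authors' deposited table the q-value was 0.0417. The size ranged from -2.15 to -1.91 over 13 alternatives, and 7 of them lost the call. Leaving out any of the 4 libraries ended it (adjusted p 0.0589 to 0.147), as did fitting without a filter (0.0598), on FPKM (0.0688) and without the trend and robust fit (0.0755). Camta1, which overlaps Tnfrsf9 on the other strand, had 7.32 to 35.4 normalized counts with overlapping subsets. Tnfsf9, the CD137 ligand gene, had 45.5 and 23.2 normalized counts among PLZF- pools and 19.8 and 1.12 among PLZF+ pools (log2 fold change -2.34, adjusted p = 0.245).

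Tnfrsf25, which encodes the death-domain receptor DR3, went the other way. Its row (chromosome 4, 152115934 to 152120119) had 103 and 50.003 normalized counts among PLZF- pools A6 and B6 and 263 and 196 among PLZF+ pools A7 and B7. Both PLZF+ libraries were above both PLZF- libraries, and within the PLZF- subset A6 was above B6. The difference on the log2 scale was 1.65 ± 0.39 (SE, adjusted p = 0.0218, limma), 3.13-fold higher in PLZF+ cells. The call was lost without A7 (1.44, adjusted p = 0.309), without B7 (1.86, adjusted p = 0.153), without B6 (1.13, adjusted p = 0.0790), on FPKM, without a filter and without the trend and robust fit. It held without A6 (2.16, adjusted p = 0.00445). In the authors' deposited table the q-value was 0.0588. Tnfsf15, the DR3 ligand TL1A, had 0 reads in 3 libraries and 1.12 normalized counts in B7.

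**Figure D2:**
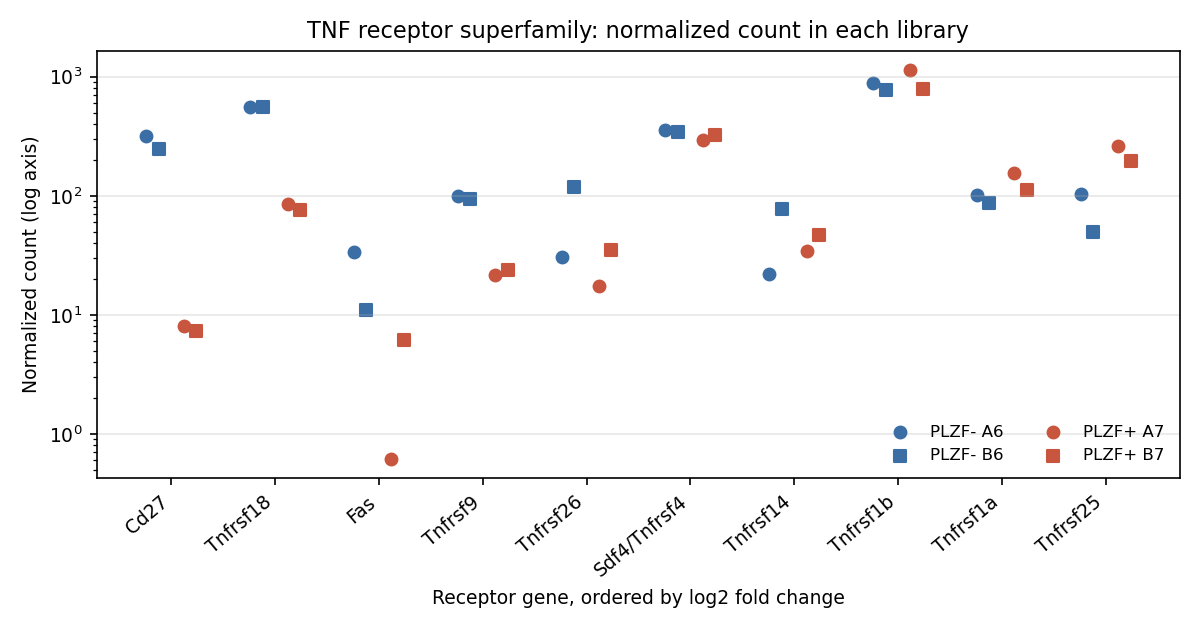
Normalized count (log axis) of each receptor in the 4 libraries, PLZF- in blue and PLZF+ in red, circles for A6 and A7 and squares for B6 and B7. Genes are ordered by log2 fold change, from Cd27 with 7.25 to 317 counts at the left to Tnfrsf25 with 50.003 to 263 at the right.

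The receptors of TNF itself did not pass in either direction. Tnfrsf1b, which encodes TNFR2 and lacks a death domain, had 881 and 768 normalized counts among PLZF- pools and 1135 and 791 among PLZF+ pools, in a row shared with the transcript AK170464. The subsets overlapped, and the log2 fold change of 0.20 had a 95% interval of -0.26 to 0.67 (adjusted p = 0.641, limma). Tnfrsf1a, which encodes TNFR1 and carries a death domain, had 101 and 87.8 against 154 and 112 (0.48, interval -0.29 to 1.24, adjusted p = 0.487). Its PLZF+ libraries were both above its PLZF- libraries. Tnfrsf1a lies 112 kb from Cd27, with Ltbr, the lymphotoxin β receptor gene, between them. Ltbr had 0 reads in all libraries, so of these 3 neighbouring receptor genes 1 differed, 1 was not called and 1 was not detected. Tnf had 27.0 and 29.3 normalized counts among PLZF- pools and 75.6 and 61.4 among PLZF+ pools (log2 fold change 1.25, adjusted p = 0.173). Lta, a second ligand of both receptors, had 3.37 and 3.66 against 37.2 and 16.7 (2.53, adjusted p = 0.196). For both ligands the PLZF+ libraries were the higher ones, and neither passed.

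Fas, the death receptor of the FAS ligand, was low. It had 33.7 and 11.0 normalized counts among PLZF- pools and 0.619 and 6.14 among PLZF+ pools, or 20, 9, 1 and 11 estimated reads in A6, B6, A7 and B7. The subsets did not overlap, but the spread within each was several-fold, and the log2 fold change of -2.58 ± 1.31 did not pass (95% interval -5.44 to 0.27, adjusted p = 0.296, limma). Its ligand gene Fasl, a cytotoxic effector, had 385 and 261 normalized counts among PLZF- pools and 0 and 1.12 among PLZF+ pools, a ratio of 533 (95% counting interval 147 to 4414, 2 reads among PLZF+ pools). Fasl passed (adjusted p = 4.06e-05, limma) and kept its call in the 13 alternative limma fits, but in the authors' deposited table its q-value was 0.607.

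Tnfrsf14 (HVEM, which binds LIGHT and BTLA) and Tnfrsf26 (a mouse receptor near Tnfrsf22 and Tnfrsf23) differed several-fold between their own PLZF- libraries. Tnfrsf14 had 22.1 and 76.8 normalized counts in A6 and B6 and 34.4 and 47.3 in A7 and B7 (log2 fold change -0.04, interval -1.38 to 1.31, adjusted p = 0.985). Its sign changed in 4 of 12 alternatives. Its count per FPKM was 8.16 and 8.02 in PLZF- against 5.44 and 3.90 among PLZF+ pools, a 2.09-fold range, beside a median of 1.17 over 8834 tested genes. A level per length is therefore less certain for this gene. Cd27 had a 2.25-fold range (1.63 and 1.83 against 1.22 and 0.813). Tnfrsf26 had 30.4 and 119.5 against 17.3 and 35.2 normalized counts (log2 fold change -1.26, interval -2.72 to 0.21, adjusted p = 0.327), and the subsets overlapped. Without A6 it was -2.23 (adjusted p = 0.0560), and without B6 -0.28 (0.810). Tnfrsf22, which lies 6083 bases from Tnfrsf26, had 10.1 and 30.5 against 1.24 and 4.46 (-2.42, adjusted p = 0.320), and Tnfrsf23 had 0 reads. In both Tnfrsf26 and Tnfrsf22, B6 was the highest library. These genes are close relatives, and how the counting split reads that match more than 1 of them is not known. Of the HVEM ligands, Tnfsf14 (LIGHT) had 140.0 and 96.3 against 91.7 and 89.8 normalized counts and did not pass (-0.35, adjusted p = 0.636). Btla had 84.4 and 39.0 in PLZF- pools and 0 in each PLZF+ pool, at least 34.9-fold lower (adjusted p = 0.0144), and this call was lost without A6 (0.422), without B6 (0.0906), at a pseudocount of 0.25 (0.0771) and on FPKM (0.0949).

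**Figure D3:**
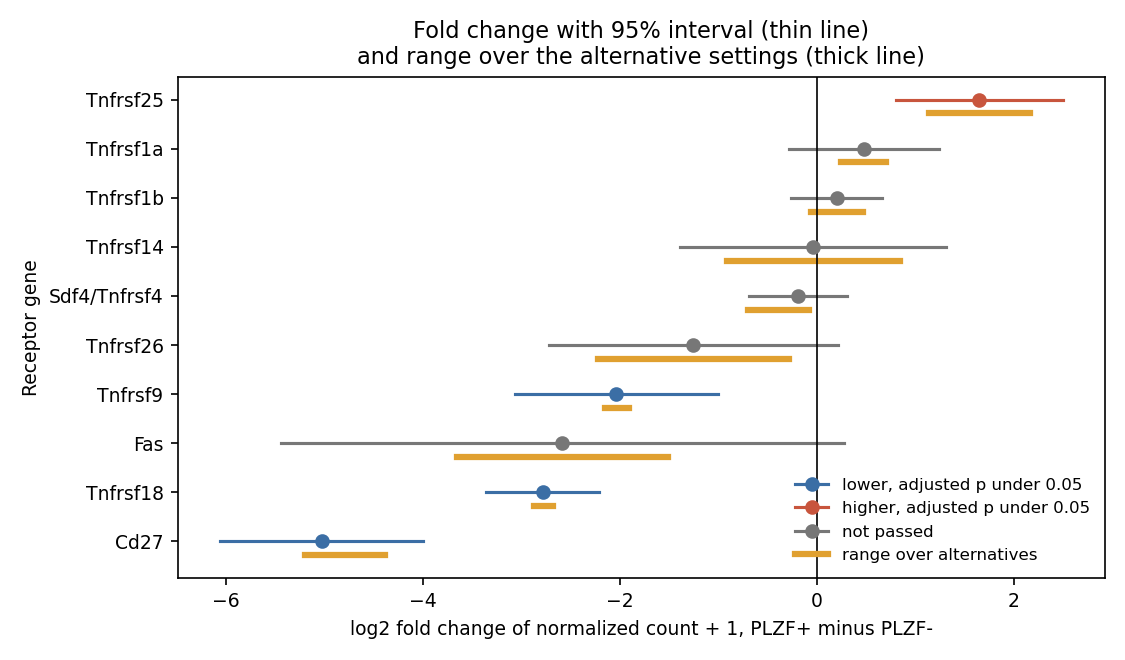
log2 fold change of each receptor (PLZF+ minus PLZF-) with its 95% interval as a thin line, and the range over the alternative settings as a thick line. Cd27, Tnfrsf18 and Tnfrsf9 lie below 0 and Tnfrsf25 above it, while the intervals of the other 6 include 0.

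Compared per length, the receptors were ordered differently in the subsets, given here as a description. The summed FPKM of the 10 rows was 999 and 911 in PLZF- pools and 463 and 379 among PLZF+ pools. Tnfrsf18 held 44.7% and 50.1% of this sum in PLZF- pools and 14.4% and 15.7% among PLZF+ pools. Cd27 held 19.4% and 14.9% against 1.43% and 2.35%. In PLZF+ cells the leading receptor was Tnfrsf1b, with 152 and 105 FPKM (32.8% and 27.8% of the sum), followed by Tnfrsf25 with 110 and 84.6 FPKM, Tnfrsf18 with 66.5 and 59.6 and the Sdf4/Tnfrsf4 row with 56.5 and 54.8. Tnfrsf25 in A7 was above Tnfrsf1b in B7, and Tnfrsf18 was above the Sdf4/Tnfrsf4 row in both libraries, so Tnfrsf1b and Tnfrsf25 overlapped and the 2 rows below did not. Tnfrsf1a followed with 54.9 and 36.2 FPKM. In PLZF- cells the order was Tnfrsf18 (446 and 456 FPKM), Cd27 (194 and 136), Tnfrsf1b (118 and 103), the Sdf4/Tnfrsf4 row (89.4 and 91.5) and then Tnfrsf25, Tnfrsf1a and Tnfrsf9, whose values overlapped (21.1 to 53.8). Tnfrsf14, Tnfrsf26 and Fas were at 2.71 to 24.7 FPKM in PLZF- pools, and at 0.287 to 12.1 among PLZF+ pools, where Cd27 and Tnfrsf9 lay in the same range.

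**Figure D4:**
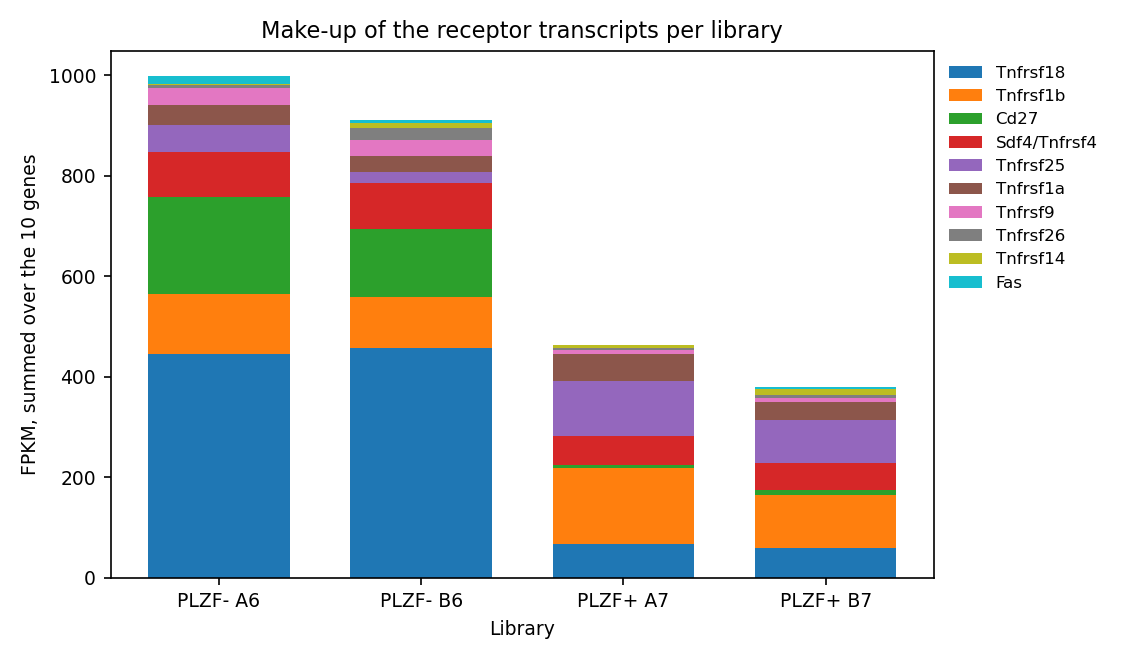
FPKM of the 10 receptor rows stacked for each library, starting at 0. The PLZF- bars reach 999 and 911 FPKM with Tnfrsf18 as the largest part, and the PLZF+ bars reach 463 and 379 FPKM with Tnfrsf1b and Tnfrsf25 as the largest parts.

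Because the CD3 chains also differed, the receptors were set against them, a description chosen after the values were seen. Per 100 normalized counts of the 4 CD3 chains, Tnfrsf25 had 13.5 and 4.18 in PLZF- pools and 11.1 and 7.58 among PLZF+ pools, so on this scale its subsets overlapped. The other 9 receptors were lower without overlap, as were 76.2% of all tested genes, since the larger CD3 sum lowers every PLZF+ value on this scale. Nothing particular to the receptors is read from this count. Cd27 was at 41.7 and 20.8 against 0.340 and 0.280, and Tnfrsf18 at 72.9 and 46.5 against 3.58 and 2.90. Tnfrsf1b, whose subsets overlapped in normalized counts, was at 115.7 and 64.2 against 47.9 and 30.5.

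Among 18 other receptors of the superfamily, 6 were tested and 0 passed by limma, beside 7.46% of all tested genes. At an unadjusted p under 0.05 there were 2 (20.3% of all tested genes). In the authors' deposited table only Tnfrsf10b, Tnfrsf12a, Tnfrsf13b, Tnfrsf21, Tnfrsf22 and Relt had a completed test. Of these 1 passed, Tnfrsf13b (q = 0.0461), beside 5.73% of all loci with a completed test. Tnfrsf13b, which encodes TACI, a receptor best known from B cells, whose marker Cd79b is given above, had 1.69 and 22.0 normalized counts among PLZF- pools and 59.5 and 59.7 among PLZF+ pools (log2 fold change 2.95, adjusted p = 0.0776). It passed at a pseudocount of 4 (0.0370) and without B6 (0.00958). Relt, a receptor of lymphoid tissue, had 52.3 and 13.4 against 1.24 and 2.79 (-3.25, adjusted p = 0.151), and Tnfrsf10b, the mouse TRAIL receptor, had 45.5 and 45.1 against 40.3 and 27.3 (-0.44, adjusted p = 0.687). Tnfrsf21, the death receptor DR6, had 50.6 and 12.2 against 30.3 and 46.3 (0.56, adjusted p = 0.703). Tnfrsf11a, the RANKL receptor, had 1.69 and 29.3 against 4.95 and 9.49 (-0.19, adjusted p = 0.956). Ltbr, Cd40, Tnfrsf8, Tnfrsf11b, Tnfrsf17, Tnfrsf23 and Eda2r had 0 reads in all 4 libraries.

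Of 18 ligand genes, 12 were tested, 2 were higher and 2 lower in PLZF+ cells, and 8 did not pass (median log2 fold change -1.37, also with the 2 genes at 0 in PLZF+ cells set to their bound). Beside these ligand counts, 4.99% of all tested genes were lower and 2.47% higher (median -0.03). Tnfsf4 and Cd40lg, which did not pass but enter the ligand median, reached the filter only through PLZF- pools. Lta reached it only through PLZF+ pools. The ligand genes called lower were Fasl and Btla. Both reached the filter only through PLZF- pools (PLZF+ means 0.558 and 0), so they could only be called lower. Those higher were Tnfsf11, which encodes RANKL, with 70.9 and 102 against 244 and 249 normalized counts (1.52, adjusted p = 0.0118), and Ltb, a subunit of the membrane lymphotoxin, with 140.0 and 219.5 against 422 and 323 (1.07, adjusted p = 0.0427). Tnfsf11 lost its call without A7 (0.151), without B7 (0.184), without a filter (0.0526), on FPKM (0.0965) and without the trend and robust fit (0.160). Ltb lost it under the same settings (0.141 to 0.458), without A6 (0.153) and at a pseudocount of 0.25 (0.0573). Their receptors Tnfrsf11a (1.69 to 29.3 normalized counts) and Ltbr (0) were at low levels or at 0 in these libraries. Tnfsf10, the TRAIL gene, had 82.7 and 64.6 against 21.1 and 23.4 (-1.67, adjusted p = 0.0722). The authors' deposited table also called 2 ligand genes higher, Tnfsf11 and Ltb, and called 3 lower: Btla, Tnfsf4 and Tnfsf10 (q = 0.0379), but not Fasl.

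Downstream of the receptors, 2 of 19 tested adaptor and death signalling genes were lower in PLZF+ cells and 0 were higher (22 listed, median -0.32). Both act with TRAF2 at co-stimulatory receptors. Birc3, a ubiquitin ligase, had 930 and 770 against 229 and 151 normalized counts (-2.18, adjusted p = 0.000201), and Traf1 had 818 and 662 against 197 and 195 (-1.90, adjusted p = 0.000237). Traf6 (-0.95, adjusted p = 0.101) was next. Casp8, Fadd, Tradd and Ripk1, which carry death receptor signals, did not pass (adjusted p 0.311 to 0.672). Of 18 tested NF-κB pathway genes (19 listed), 5 were lower and 0 higher (median -0.72). Beside these adaptor and NF-κB counts, 4.99% of all tested genes were lower and 2.47% higher (median -0.03). Nfkbiz, an atypical IκB protein gene, had 729 and 682 against 115.2 and 48.0 (-3.23, adjusted p = 0.000145), the subunit gene Rel fell by 1.90 (adjusted p = 0.000880) and Nfkbia, the IκBα gene, by 1.60 (0.00188). Nfkb1 (-1.53) and Tnfaip3, the A20 gene (-0.95), were the other two. Many of these genes are themselves NF-κB targets. Without the trend and robust fit the adaptor and NF-κB lists held 0 calls, and on FPKM the NF-κB list held 2.

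**Figure D5:**
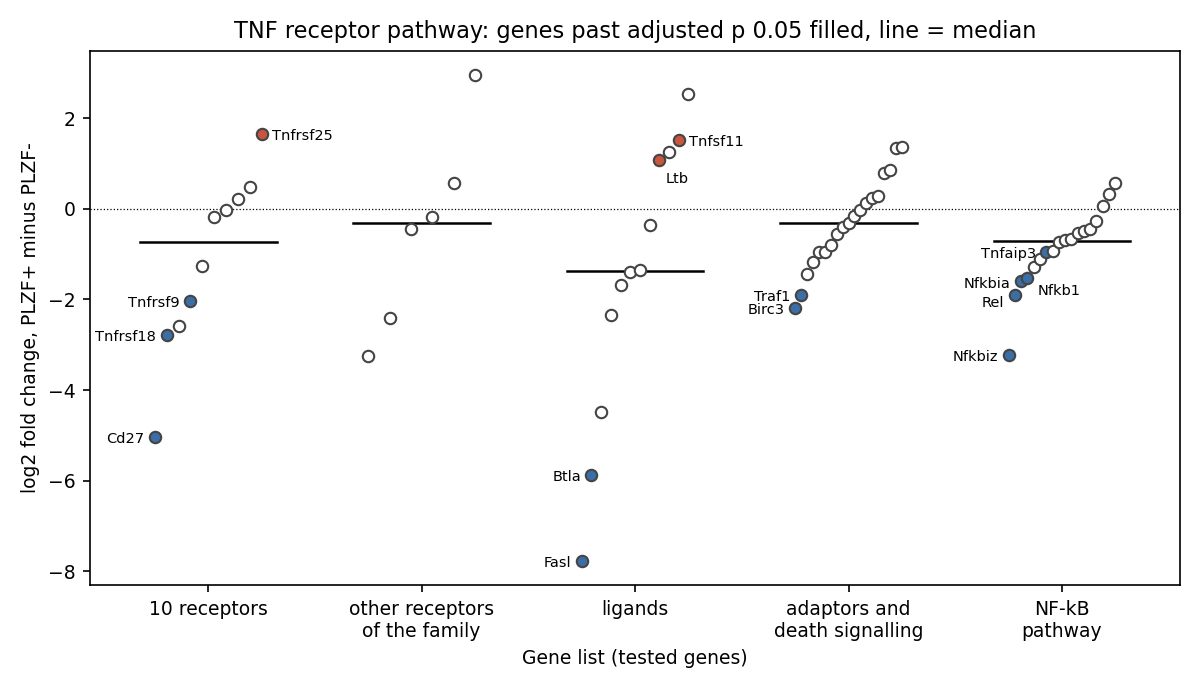
log2 fold change (PLZF+ minus PLZF-) of the tested genes in 5 lists, with genes past an adjusted p of 0.05 filled and named, and the list median as a line. Called adaptor and NF-κB genes lie below 0, while called ligands lie on both sides.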

How the data were processed

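SMART-seq2 libraries of sorted γδ T cells were analysed from the authors' tables. The submitters' processing notes name HISAT 0.1.6, SAMtools 1.2, Cufflinks 1.2, Cuffdiff and the build mm10. Neither the annotation nor the strand setting is named in them. The deposited Cuffnorm count table gives each library's estimated counts after division by its own scaling factor, and was used as a signal. The authors also deposited an FPKM table and a Cuffdiff table with p-values and q-values, whose directions were taken from the FPKM table. Overlapping loci with the same deposited name were summed, which gave 46166 genes. Reads were estimated by taking the most frequent value above 0 in each library as 1 read. Of all gene values above 0 without Rn45s, 93.8% to 95.5% per library came within 0.05 of whole reads. Intervals and floors cover counting error only. Rn45s was left out.

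A filter kept the 9282 genes whose normalized counts averaged 10 or more. limma 3.58.1 (R 4.3.3, statmod 1.5.0) was fitted to log2(normalized count + 1), which understates changes of low genes, using trended variances and robust moderation. Tests were two-sided, with Benjamini-Hochberg adjustment over all tested genes and a threshold of 0.05, and the fit was tested on simulated data. The alternatives were pseudocounts (0.25 or 4), filters (none, or a mean of 50), scaling by median ratios or to equal totals, FPKM (pseudocount 0.1, mean of at least 0.5), plain moderation, unsummed loci, leaving out each library, and the Cuffdiff calls. Python 3.11.15, pandas 2.3.3, scipy 1.17.1 and matplotlib 3.10.9 made the tables and figures.

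The members and lists were chosen with earlier results of these data known. Named genes are all members, their ligands, tested receptors of the family, and the 3 genes of each other list with the smallest p. Other names were chosen after their values were seen.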

Additional observations from a re-analysis of the deposited data

How the results depend on the processing

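The table columns do not carry the replicate numbers of the labels, so the fit with those numbers as a block was not run. The letters A and B of the column codes recur in both subsets, with no labelled meaning, and the A minus B differences of the subsets correlated at r = 0.07 across 9282 genes. A replicate block on the letter, added after seeing the data, leaves 1 residual degree of freedom and called 426 genes higher and 694 lower, with 1 receptor higher and 3 lower. The main fit called 229 genes higher and 463 lower. These counts moved by over 1.5 times without a filter (109 and 277), on FPKM (52 and 125) and without the trend and robust fit (28 and 186). With 1 library left out, which assumes that a lone library varies like the others, 36 to 360 genes were higher and 231 to 337 lower. Among the receptors, 1 was higher and 3 lower. The higher call, Tnfrsf25, became 0 without a filter, on FPKM, without the trend and robust fit and in the Cuffdiff calls, and was 0 to 1 with 1 library left out. The lower calls were 2 or 3 in every setting, and 2 in each fit without 1 library, since Tnfrsf9 was lost. No called receptor changed sign. Tnfrsf14 and Tnfrsf1b, not called, changed sign in 4 and 1 alternatives. Fas could not be fitted at a minimum mean of 50 or without A6, and Tnfrsf14 not at a minimum mean of 50. The causes were not tested. Estimated reads were few for Fas (1 to 20 per library), for Cd27 in each PLZF+ library (13) and for Tnfrsf14 in A6 (13).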
